A study of Mus musculus with 25 samples.

Results

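The 10 genes described here encode chemokines, chemokine receptors and growth factors that govern the supply and survival of monocytes and macrophages: Ccl2, Ccl7, Ccl8, Ccl12, Ccr2, Cx3cr1, Cx3cl1, Csf1, Csf1r and Csf2. They were chosen by name, with earlier results of these data known, so they are not a blind choice. Each gene was taken from the row of the deposited table whose gene identifier carries that symbol, and 10 of 10 were found among 49452 rows. All 10 passed the filter on low values, at least 0.2 FPKM in at least 5 libraries, which 19266 genes passed. FPKM are fragments per kilobase of transcript, scaled to the fragments mapped in the library, so levels may be set side by side between genes. Csf2 passed with exactly 5 such libraries, most of them from NEMOIEC-KO (described below), the genotype in which it was then called higher.

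RNA was measured in the distal colon of 25 mice aged 6 weeks on the C57BL/6 background, 5 mice per genotype. Nemofl/fl mice carry a floxed gene for NEMO (Ikbkg), the regulatory subunit of the kinase that activates NF-kB, and served as controls. NEMOIEC-KO mice lack NEMO in intestinal epithelial cells. Double mutants are NEMOIEC-KO mice that carry the label Il12b-/-, Il12a-/- or Il23a-/-. Il12b encodes p40, a subunit of both IL-12 and IL-23, Il12a encodes the p35 subunit of IL-12, and Il23a encodes the p19 subunit of IL-23. They are called the Il12b-/-, Il12a-/- and Il23a-/- double mutants below. All 4 mutant groups thus share the epithelial deletion. The labels do not name the driver of the deletion or describe the mutant alleles, and every mouse gave 1 library. The question the design states is how the loss of each subunit alters colon inflammation in NEMOIEC-KO mice.

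As background, CCL2, CCL7 and CCL12 draw monocytes that carry the receptor CCR2 out of the bone marrow and into inflamed tissue, where they mature to macrophages. Mouse CCL8 is closely related to them but is known to act mainly through CCR8. CX3CR1 marks the macrophages of the intestinal lamina propria, and its ligand fractalkine (CX3CL1) is made by epithelium and endothelium and shed from the cell surface. CSF1 acts through CSF1R to keep macrophages alive, while CSF2 (GM-CSF) is a product of activated lymphoid and stromal cells that stimulates myeloid cells.

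The libraries were similar in their summed FPKM, 653776 to 744280, and in the number of genes at 1 FPKM or more, 13529 to 14374. Read counts were not used, so depth is known only in relative terms: ratios of the smallest FPKM values put it between 0.742 and 1.22 of that of Nemofl/fl replicate 1. Ikbkg lay at 8.27 to 11.0 FPKM in Nemofl/fl and at 2.93 to 5.85 in the 20 mutant libraries. Il12b RNA averaged 0.994 ± 0.223 FPKM (SD, n = 5) in the libraries labelled Il12b-/-, against 0.171 ± 0.0799 in NEMOIEC-KO, and Il12a RNA averaged 1.2 ± 0.586 in those labelled Il12a-/-, against 0.421 ± 0.313 in NEMOIEC-KO. The RNA of these 2 genes therefore ran against the label. A whole-gene FPKM also counts exons outside a deleted part and cannot check the alleles, so each direction below is that of libraries labelled Il12b-/-, Il12a-/- or Il23a-/-. Il23a RNA averaged 0.214 ± 0.0427 FPKM in the Il23a-/- double mutants and 0.311 ± 0.308 in NEMOIEC-KO. The labels also carry a library code: Nemofl/fl and NEMOIEC-KO replicates 3 to 5 have one code, and NEMOIEC-KO replicates 1 and 2 and 14 of the 15 double mutants another. Sex-linked RNA marked 0 of 5 mice as female in Nemofl/fl, 1 in NEMOIEC-KO, 2 in each of the Il12b-/- and Il12a-/- double mutants and 4 in the Il23a-/- double mutants. Defining genes of distal colon were present, with Hoxb13 at 176 to 297 FPKM, but 4 of 5 were lower in NEMOIEC-KO than in Nemofl/fl: Car1 averaged 821 against 2281 FPKM, Slc26a3 132 against 551, Hoxb13 211 against 275 and Hoxd13 59.7 against 83.1. Of the small intestinal genes Sis reached at most 0.123 FPKM, whereas the ileal bile acid binding gene Fabp6 had a mean of 9.95 FPKM in the controls, of 55.5 with NEMOIEC-KO and of 117 with Il23a-/-, whose highest library reached 267. The part of these differences in the results below was not tested.

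In NEMOIEC-KO against Nemofl/fl colon, 7 of the 10 genes were higher and none was lower: the chemokines Ccl2, Ccl7, Ccl8 and Ccl12, the receptors Ccr2 and Cx3cr1, and the growth factor Csf2. Ccl8 rose 10.8-fold and Ccl7 13.0-fold in mean FPKM, whereas Cx3cl1, Csf1 and Csf1r did not pass the test. A gene counts as changed where limma, fitted to log2(FPKM + 0.5) over all 25 libraries, gave an adjusted p (Benjamini-Hochberg, 19266 genes, two-sided) below 0.05. Across all genes tested, 11.9% were higher and 20.3% lower by this rule. For 6 of the 10 genes the lowest NEMOIEC-KO library stood above the highest Nemofl/fl library, against 8.73% of all genes. The median log2 change was 0.89 over the 10 genes and -0.08 over all genes. Colon here is bulk tissue, in which more cells of a type and more RNA per cell cannot be told apart.

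In mean FPKM the order of the 10 genes in Nemofl/fl was Cx3cl1 (53.4), Csf1r (8.60), Csf1 (6.73), Ccl8 (2.68), Cx3cr1 (1.39), Ccl12 (1.36), Ccr2 (0.965), Ccl7 (0.959), Ccl2 (0.499) and Csf2 (0.0353). The ranges of Csf1r and Csf1 did not overlap, while Cx3cr1, Ccl12, Ccr2 and Ccl7 overlapped each other. In NEMOIEC-KO the order was Cx3cl1 (53.1), Ccl8 (29.0), Csf1r (12.8), Ccl7 (12.5), Csf1 (6.48), Ccl2 (3.87), Ccl12 (3.11), Ccr2 (3.08), Cx3cr1 (2.62) and Csf2 (0.483), and from Ccl8 to Cx3cr1 each gene's range overlapped that of its neighbour in this order. Ccl8 and Ccl7 thus moved up past Csf1.

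**Figure D1:**
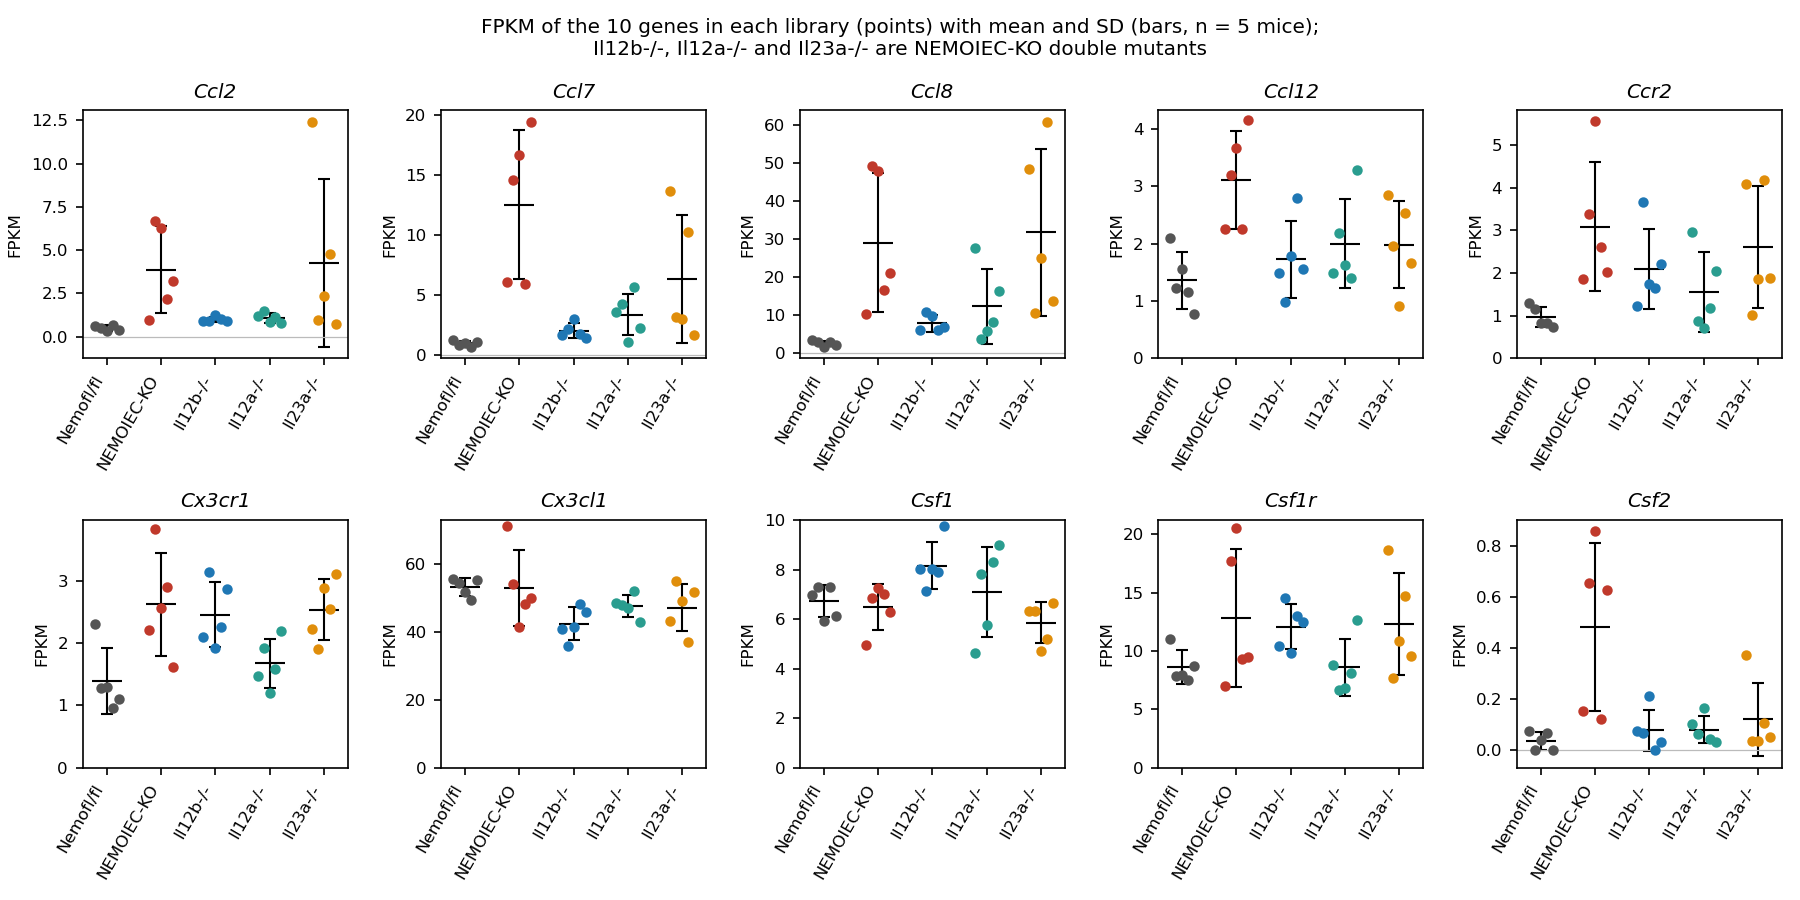
FPKM of each of the 10 genes in the 25 libraries (points, 1 per mouse), grouped by genotype on the horizontal axis, with the mean (long bar) and SD (short bars) of 5 libraries. Ccl7 lay at or above 5.88 FPKM in every NEMOIEC-KO library and at or below 1.24 in every Nemofl/fl library, while Cx3cl1, at 41.4 to 71.4 FPKM, overlapped between these 2 groups.

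Ccl7 encodes a chemokine that acts on CCR2 and other receptors. In Nemofl/fl replicates 1 to 5 its level was 1.24, 0.824, 1.00, 0.663 and 1.06 FPKM. In NEMOIEC-KO it was 6.05, 14.6, 16.6, 5.88 and 19.4 FPKM. The groups did not overlap, with replicates 2, 3 and 5 of NEMOIEC-KO far above replicates 1 and 4. The log2 change was 3.01 ± 0.44 (SE; limma, adjusted p 5.59e-05). Among Il12b-/- double mutants Ccl7 stood at 1.67, 2.13, 3.01, 1.75 and 1.40 FPKM. In the Il12a-/- double mutants it stood at 3.60, 4.21, 1.1, 5.62 and 2.26 FPKM. In the Il23a-/- double mutants it stood at 13.7, 3.14, 2.95, 10.3 and 1.63 FPKM. Every Il12b-/- and Il12a-/- library thus lay below every NEMOIEC-KO library, while replicates 1 and 4 of Il23a-/- lay within the NEMOIEC-KO range. Against NEMOIEC-KO, Ccl7 fell by 2.26 on the log2 scale in the Il12b-/- double mutants (limma, adjusted p 0.00124) and fell by 1.74 in the Il12a-/- double mutants (adjusted p 0.0189). In the Il23a-/- double mutants the log2 change was -1.14 with a 95% interval from -2.06 to -0.23 and an adjusted p of 0.323.

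Ccl2 encodes the best known CCR2 ligand. The controls held 0.625, 0.473, 0.325, 0.682 and 0.391 FPKM. NEMOIEC-KO libraries held 0.985, 6.71, 6.30, 2.19 and 3.19 FPKM. Replicate 1 of NEMOIEC-KO was the lowest of its group and still above the Nemofl/fl range. The log2 change was 1.91 ± 0.46 (SE; limma, adjusted p 0.00379), a 7.76-fold difference in mean FPKM. The Il12b-/- double mutants lay between 0.879 and 1.23 FPKM and the Il12a-/- double mutants between 0.771 and 1.47. In the Il23a-/- double mutants Ccl2 was 12.4, 0.984, 2.33, 4.79 and 0.728 FPKM, so that replicate 1 exceeded the other 24 libraries and replicates 2 and 5 sat near the level of the other double mutants. Against NEMOIEC-KO the log2 change was -1.33 in the Il12b-/- double mutants (limma, adjusted p 0.0448), which passed the threshold, -1.25 in the Il12a-/- double mutants (adjusted p 0.0809) and -0.21 in the Il23a-/- double mutants (adjusted p 0.942).

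Ccl8 had the highest level of the 4 CC chemokines in every group mean. Nemofl/fl libraries held 3.39, 3.00, 1.69, 3.06 and 2.26 FPKM. NEMOIEC-KO libraries held 10.4, 49.3, 47.8, 16.7 and 21.0 FPKM. All 5 stood above the controls, with replicates 2 and 3 far above the other 3. The log2 change was 3.00 ± 0.50 (SE; limma, adjusted p 0.0002). The Il12b-/- double mutants lay at 6.05, 10.8, 9.67, 6.12 and 6.93 FPKM. The Il12a-/- double mutants lay at 27.7, 3.68, 5.75, 8.12 and 16.4 FPKM. The Il23a-/- double mutants lay at 48.3, 10.7, 25.1, 60.8 and 13.6 FPKM. The Il12b-/- values were tight and reached just into the bottom of the NEMOIEC-KO range, the Il12a-/- values spread from just above the controls into the NEMOIEC-KO range, and all Il23a-/- values lay above the lowest NEMOIEC-KO library. Against NEMOIEC-KO, Ccl8 fell by 1.61 on the log2 scale in the Il12b-/- double mutants (limma, adjusted p 0.0271). The change was -1.30 in the Il12a-/- double mutants (adjusted p 0.0938) and 0.06 in the Il23a-/- double mutants, with a 95% interval from -0.97 to 1.1 (adjusted p 0.989).

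Ccl12, a chemokine of rodents that acts on CCR2, moved less. In the controls Ccl12 stood at 2.1, 1.23, 1.55, 1.16 and 0.777 FPKM. NEMOIEC-KO libraries held 2.25, 3.21, 3.68, 2.26 and 4.16 FPKM. The groups were separated by a narrow margin between Nemofl/fl replicate 1 and NEMOIEC-KO replicate 1. The log2 change was 0.96 ± 0.25 (SE; limma, adjusted p 0.00641). Double mutants lay between 0.909 and 3.28 FPKM, with group means of 1.72 ± 0.674 (SD, n = 5, Il12b-/-), 2.00 ± 0.779 (Il12a-/-) and 1.98 ± 0.760 (Il23a-/-), against 3.11 ± 0.853 in NEMOIEC-KO. The difference from NEMOIEC-KO passed the test in the Il12b-/- double mutants (log2 change -0.72, limma adjusted p 0.0467) and not in the Il12a-/- (-0.55, adjusted p 0.150) or Il23a-/- double mutants (-0.57, adjusted p 0.417).

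These chemokine genes lie next to each other. In GRCm38 (GENCODE vM21) the order on chromosome 11 is Ccl2 (82035571 to 82037453), Ccl7 (82045712 to 82047525), Ccl11, Ccl12 (82101845 to 82103400) and Ccl8 (82115185 to 82116799), all on the plus strand within 81.2 kb. Ccl11, the eotaxin gene in the middle of the cluster, averaged 3.96 FPKM in NEMOIEC-KO and 6.09 in Nemofl/fl, with a log2 change of -0.59 ± 0.32 (SE; limma, adjusted p 0.163). The longest run of bases shared by any pair of the 4 transcripts was 23, between Ccl2 and Ccl7, so reads of 76 bases could be told apart between them. Ccl2 overlaps Gm17268 on the other strand. The kit kept strand, but how strand was used in counting is not given in the sources used here.

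The neighbours Ccl12 and Ccl8 changed by different amounts (log2 changes of 0.96 and 3.00 in NEMOIEC-KO), and their upstream sequences are shown for that reason. They are the 250 bases before the gene start, from RefSeq on GRCm38.p6, 5′ to 3′ along the gene, with TATAAA, the TATA box letters, in capitals.
Ccl8 (chr11:82114935-82115184, plus strand): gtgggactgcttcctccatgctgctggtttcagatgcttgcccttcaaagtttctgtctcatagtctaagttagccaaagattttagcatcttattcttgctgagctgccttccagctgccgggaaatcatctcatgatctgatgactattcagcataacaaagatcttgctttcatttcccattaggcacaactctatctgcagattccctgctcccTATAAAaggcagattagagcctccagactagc
Ccl12 (chr11:82101595-82101844, plus strand): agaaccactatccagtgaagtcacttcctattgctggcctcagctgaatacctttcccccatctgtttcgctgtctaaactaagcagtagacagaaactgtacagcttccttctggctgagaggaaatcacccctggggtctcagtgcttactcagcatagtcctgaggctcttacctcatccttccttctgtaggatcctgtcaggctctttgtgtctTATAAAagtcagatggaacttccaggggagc

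Promoter windows of 300 bases (250 before to 50 after the RefSeq start) were found for 7 of the 10 genes, that is all except Ccl2, Ccl7 and Csf1r. The RefSeq starts of Ccl8, Ccl12 and Csf1 are also the GENCODE starts. The windows of Ccr2, Cx3cr1 and Cx3cl1 lie largely or wholly inside the GENCODE gene. That of Csf2 (54249850 to 54250149) lies before the GENCODE gene without reaching its start at 54249667. For these genes the window is thus not the stretch around the GENCODE start. TATAAA began at position -32 relative to the RefSeq start in Ccl8, -31 in Ccl12 and -6 in Cx3cl1. It occurred in 13.6% of 32851 promoter windows of the same length, on either strand. The kappa B decamer bound by NF-kB was searched in its canonical form and in a pair of looser forms, in which the canonical one is included, and these were found in 0.155%, 1.63% and 5.56% of the windows. Among the 7 genes it was found in Csf1, where the same stretch met the 3 forms. TTCNNNGAA (the STAT element GAS, 8.30% of windows), TGANTCA (AP-1, 7.81%) and the core of the interferon-stimulated response element, GAAA repeated after any 2 bases (3.44%), had no match in the 7 windows. These letters show what the windows hold and do not show binding, and an absent match says only that the letters are not in this window. Csf1, whose level did not pass the test in any of the 10 comparisons, is shown as the member with the kappa B letters, which lie on the minus strand of the gene from position -154 and are in capitals.
Csf1 (chr3:107760470-107760719, minus strand): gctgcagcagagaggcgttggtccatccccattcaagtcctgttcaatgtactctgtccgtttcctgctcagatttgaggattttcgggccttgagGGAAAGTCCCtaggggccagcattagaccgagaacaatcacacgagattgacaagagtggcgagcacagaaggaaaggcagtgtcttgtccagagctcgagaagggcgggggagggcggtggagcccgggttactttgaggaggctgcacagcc

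Ccr2, the receptor of CCL2, CCL7 and CCL12 and the defining receptor of inflammatory monocytes, rose 3.20-fold in NEMOIEC-KO. Control levels were 1.29, 1.15, 0.820, 0.837 and 0.730 FPKM. NEMOIEC-KO libraries held 1.85, 3.38, 5.57, 2.60 and 2.01 FPKM. The groups did not overlap, and NEMOIEC-KO replicate 3 was the highest. The log2 change was 1.22 ± 0.33 (SE; limma, adjusted p 0.00776). The Il12b-/- double mutants stood at 1.23, 3.66, 1.74, 1.66 and 2.20 FPKM. The Il12a-/- double mutants stood at 2.95, 0.863, 0.715, 1.17 and 2.04 FPKM. The Il23a-/- double mutants stood at 4.09, 1.02, 1.86, 4.18 and 1.89 FPKM. Each group overlapped NEMOIEC-KO, with log2 changes of -0.44 (limma, adjusted p 0.350), -0.83 (adjusted p 0.0992) and -0.25 (adjusted p 0.885), none of which passed the test.

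Cx3cr1, the fractalkine receptor of resident macrophages, rose 1.89-fold in NEMOIEC-KO. Nemofl/fl replicates 1 to 5 held 2.31, 1.27, 1.30, 0.951 and 1.11 FPKM. NEMOIEC-KO libraries held 2.21, 3.83, 2.56, 2.90 and 1.62 FPKM. Replicate 1 of Nemofl/fl overlapped the mutant range, and the log2 change was 0.73 ± 0.19 (SE; limma, adjusted p 0.00653). Means in the double mutants were 2.45 ± 0.522 FPKM (SD, n = 5, Il12b-/-), 1.67 ± 0.391 (Il12a-/-) and 2.53 ± 0.488 (Il23a-/-), against 2.62 ± 0.826 in NEMOIEC-KO. The log2 change from NEMOIEC-KO was -0.50 in the Il12a-/- double mutants (limma, adjusted p 0.0888), and its 95% interval in the Il12b-/- double mutants ran from -0.45 to 0.33. In the annotation Cx3cr1 spans 9 other genes on both strands, so part of its FPKM could come from reads that those genes share.

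Cx3cl1, the fractalkine gene, had the highest level of the 10 in every group. In Nemofl/fl its level was 55.6, 54.6, 52.0, 49.4 and 55.4 FPKM. NEMOIEC-KO libraries held 71.4, 54.2, 41.4, 48.4 and 49.9 FPKM. The means were 53.4 ± 2.67 and 53.1 ± 11.3 FPKM (SD, n = 5), the log2 change was -0.03 (limma, adjusted p 0.858), and its 95% interval from -0.27 to 0.21 leaves out a change of 1.5-fold in either direction. The Il12b-/- double mutants, at 40.9, 35.8, 41.5, 48.3 and 45.9 FPKM, all lay below the Nemofl/fl range, as 1.59% of all genes did. That log2 change of -0.33 did not pass the test (limma, adjusted p 0.208), nor did the change of -0.30 from NEMOIEC-KO (adjusted p 0.0686). The latter passed with median-of-ratios scaling (-0.43, adjusted p 0.0248), with the library code in the model (-0.55, adjusted p 0.0164) and with the smooth muscle level as a covariate (-0.38, adjusted p 0.0326). Fractalkine shedding enzymes and their inhibitor (Adam10, Adam17, Ctss, Timp3) gave 0 of 4 called genes in NEMOIEC-KO, where 32.2% of all genes were called in either direction. Adam10, the main constitutive sheddase, fell by 0.55 on the log2 scale in the Il12a-/- double mutants (limma, adjusted p 0.0232). Over the alternative analyses the number of these 4 genes called lower there ran from 0 to 2.

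Csf1 and its receptor Csf1r did not pass the test in NEMOIEC-KO. Csf1 lay at 6.96, 7.31, 5.94, 7.31 and 6.14 FPKM in Nemofl/fl and at 4.94, 6.88, 7.25, 7.03 and 6.31 in NEMOIEC-KO. The log2 change was -0.06 with a 95% interval from -0.36 to 0.24 (limma, adjusted p 0.781). Csf1 averaged 8.18 ± 0.971 FPKM (SD, n = 5) in the Il12b-/- and 5.86 ± 0.834 in the Il23a-/- double mutants, ranges that did not overlap. This direct difference, a log2 change of -0.45 for Il23a-/- minus Il12b-/-, missed the threshold (limma, adjusted p 0.0654), and in that comparison 3.69% of all genes had ranges placed this way. It passed with the library code in the model (-0.50, adjusted p 0.0445), without Il12b-/- replicate 2 (adjusted p 0.0349) and without Il23a-/- replicate 5 (adjusted p 0.0415). That last library alone has its code, so the first and last settings give the same estimate. Within the code that the other libraries of both groups share, the difference did not pass. Csf1r, the receptor that defines the mononuclear phagocyte lineage, lay at 11.0, 7.86, 7.92, 7.49 and 8.71 FPKM in Nemofl/fl and at 7.03, 17.7, 20.5, 9.29 and 9.49 in NEMOIEC-KO. Replicates 2 and 3 of NEMOIEC-KO stood well above the other 8 libraries. The log2 change of 0.45 had a 95% interval from -0.07 to 0.97 (limma, adjusted p 0.171), which includes both no change and a near 2-fold rise. Csf1r overlaps Hmgxb3 on the other strand. Outside the chromosome 11 cluster, the annotation places Ccr2 on chromosome 9 (124101950 to 124113557, plus strand), Cx3cr1 on chromosome 9 (119901616 to 120069879, minus), Cx3cl1 on chromosome 8 (94772009 to 94782427, plus), Csf1 on chromosome 3 (107741048 to 107760469, minus), Csf1r on chromosome 18 (61100598 to 61132149, plus) and Csf2 on chromosome 11 (54247271 to 54249667, minus).

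Csf2 was close to the detection limit. Among Nemofl/fl libraries it stood at 0.0731, 0, 0.0372, 0.0664 and 0 FPKM. NEMOIEC-KO libraries held 0.152, 0.654, 0.860, 0.122 and 0.629 FPKM. If the smallest values above 0 stand for 1 fragment, these correspond to about 2, 0, 1, 2 and 0 fragments in Nemofl/fl and to about 4, 22, 27, 3 and 16 in NEMOIEC-KO. The groups did not overlap, with NEMOIEC-KO replicates 2, 3 and 5 high and replicates 1 and 4 near the controls. Csf2 reached the filter level of 0.2 FPKM in those high replicates, in Il12b-/- replicate 3 and in Il23a-/- replicate 1. It thus entered the test mainly through the group in which it was called higher, and its calls are not independent of the filter. The log2 change of 0.81 ± 0.18 (SE; limma, adjusted p 0.00208) is damped by the added 0.5. The Il12b-/- double mutants reached 0.213 FPKM, the Il12a-/- double mutants 0.163 and the Il23a-/- double mutants 0.373. Csf2 fell by 0.71 on the log2 scale in the Il12b-/- (limma, adjusted p 0.00813) and fell by 0.70 in the Il12a-/- double mutants (adjusted p 0.0197), and its change in the Il23a-/- double mutants was -0.62 (adjusted p 0.149). The exact two-sided permutation test of mean FPKM (all splits of 5 against 5, adjusted over 4 comparisons) gave p = 0.0317 for NEMOIEC-KO against Nemofl/fl, and p = 0.0529, 0.0476 and 0.0556 for the double mutants (Il12b-/-, Il12a-/-, Il23a-/-) against NEMOIEC-KO. Csf2 has an antisense neighbour, Gm12223, within its bounds.

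**Figure D2:**
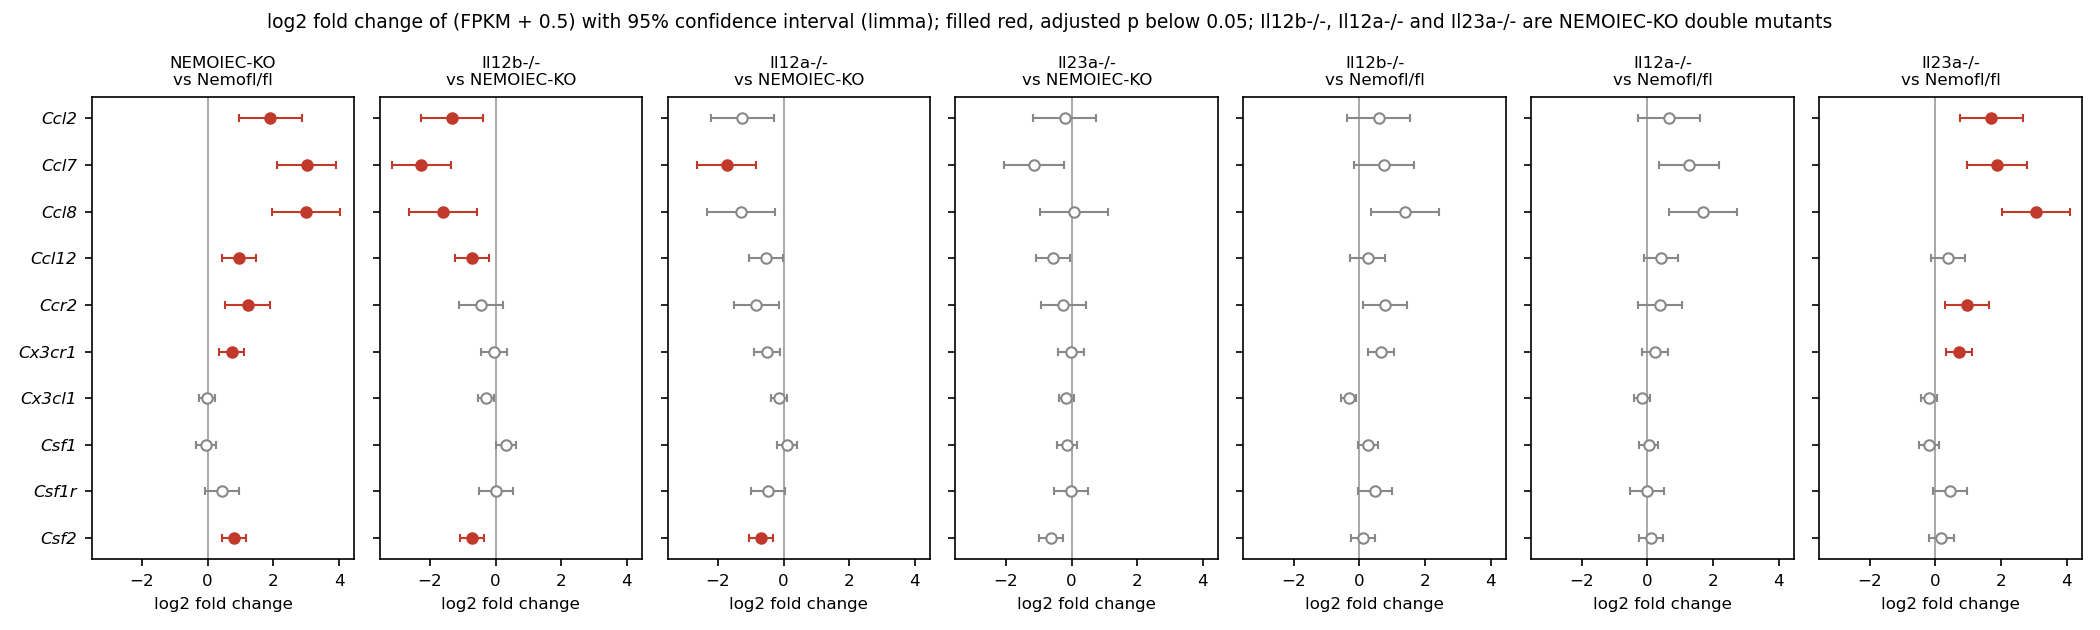
Log2 fold change of FPKM + 0.5 (horizontal axis) with its 95% confidence interval from limma for the 10 genes in 7 comparisons, filled red where the adjusted p was below 0.05. In NEMOIEC-KO against Nemofl/fl 7 of the 10 genes are filled, in the Il12b-/- double mutants against NEMOIEC-KO 5, in the Il12a-/- double mutants 2 and in the Il23a-/- double mutants 0.

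Within the code shared by all Nemofl/fl and 3 NEMOIEC-KO libraries, 6 of the 7 changes passed the test again: log2 changes were 2.04 for Ccl2, 3.16 for Ccl7, 3.07 for Ccl8, 1.06 for Ccl12, 1.32 for Ccr2 and 0.88 for Csf2 (limma, adjusted p 0.00136 to 0.0273). That of Cx3cr1 was 0.61 (adjusted p 0.0991). Smooth muscle markers moved in the same comparison: 9 of 13 were lower in NEMOIEC-KO, their summed level lay at 1602 to 4756 FPKM against 2680 to 9615 in Nemofl/fl, and none of the 13 was at 0. With the mean smooth muscle level as a covariate, Ccl7, Ccl8, Ccl12 and Csf2 still passed, while Ccl2 (log2 change 1.31, limma adjusted p 0.0754), Ccr2 (0.52, adjusted p 0.158) and Cx3cr1 (0.47, adjusted p 0.114) did not.

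In the Il12b-/- double mutants 5 of the 10 genes were lower than in NEMOIEC-KO and none was higher: Ccl2, Ccl7, Ccl8, Ccl12 and Csf2, the 4 chemokines and the growth factor that had risen in NEMOIEC-KO. Ccr2 and Cx3cr1 did not pass the test. Across all genes 5.94% were lower and 14.0% higher, and 4.1% had ranges wholly below, as Ccl7 did here. Median log2 changes were -0.57 over the 10 genes and 0.11 over all genes. Both this comparison and that of NEMOIEC-KO with Nemofl/fl use the same NEMOIEC-KO libraries, so they are not independent. The 5 calls were of unequal firmness: Ccl7 was called in 22 of 22 alternative analyses, Csf2 in 19 of 21, Ccl8 in 14 of 22, Ccl12 in 9 of 22 and Ccl2 in 8 of 22. The count for Csf2 is not independent of the filter, which it passed mainly through NEMOIEC-KO. Its exact permutation test missed the threshold in this comparison (adjusted p 0.0529). Within the library code that the Il12b-/- double mutants share with 2 NEMOIEC-KO libraries, Ccl7 was called (log2 change -2.03, limma adjusted p 0.0286), whereas Ccl2 (-1.14), Ccl8 (-1.50), Ccl12 (-0.57) and Csf2 (-0.60) had adjusted p from 0.135 to 0.265. Leaving out 1 of the 10 libraries of this comparison ended the call of Ccl2 except for NEMOIEC-KO replicates 1 and 4 (adjusted p up to 0.126), and that of Ccl12 except for NEMOIEC-KO replicates 1 and 4 and Il12b-/- replicate 4 (up to 0.109). It ended the call of Ccl8 for NEMOIEC-KO replicates 2 and 3 and Il12b-/- replicates 1, 4 and 5 (up to 0.0829). With the replicate number as a block, Ccl2 (adjusted p 0.0606) and Ccl12 (0.0702) missed the threshold.

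In the Il12a-/- double mutants 2 of the 10 genes were lower than in NEMOIEC-KO, Ccl7 and Csf2, and none was higher, against 4.0% and 5.61% of all genes. Ccl7 was the one with all 5 libraries below NEMOIEC-KO, a placement that 1.97% of all genes had. The median log2 change of the 10 genes was -0.62, against 0.07 over all genes. Replicates 1 and 5 held the highest Ccl8 and Ccr2 of the group, 27.7 and 16.4 FPKM for Ccl8 and 2.95 and 2.04 for Ccr2. Without replicate 1, Ccl8 (log2 change -1.67, limma adjusted p 0.0166) and Ccr2 (-1.05, adjusted p 0.0223) passed the test as well, and 4836 in place of 1851 genes were called over the whole table. Ccl2 passed without NEMOIEC-KO replicate 1 (-1.59, limma adjusted p 0.0363) and Cx3cr1 without NEMOIEC-KO replicate 5 (-0.63, adjusted p 0.0437). No member was called within the shared library code, with that code or the smooth muscle level in the model, in a model of the 2 groups alone, or without NEMOIEC-KO replicate 3. In these 5 analyses the adjusted p of Ccl7 lay between 0.0571 and 0.308. Ccl7 also missed the threshold without Il12a-/- replicate 3 (0.0643), and Csf2 without NEMOIEC-KO replicate 2 or Il12a-/- replicate 2, 4 or 5 (0.0509 to 0.0579).

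In the Il23a-/- double mutants limma called 0 of the 10 genes against NEMOIEC-KO, against 0.0467% of all genes as higher and 0.0363% as lower. At an unadjusted p below 0.05, 3 of the 10 were lower: Csf2 (p 0.00204), Ccl7 (p 0.0162) and Ccl12 (p 0.0334, limma). The wide intervals do not exclude sizeable changes: that of Ccl2 ran from -1.16 to 0.75 and that of Ccl8 from -0.97 to 1.1 on the log2 scale. Libraries of this group fell far apart, since replicates 1 and 4 held 48.3 and 60.8 FPKM of Ccl8 and replicates 2 and 5 held 10.7 and 13.6.

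Against Nemofl/fl, the Il23a-/- double mutants had 5 of the 10 genes higher, where 12.6% of all genes were: Ccl2 (log2 change 1.71, limma adjusted p 0.0106), Ccl7 (1.87, adjusted p 0.00487), Ccl8 (3.07, adjusted p 0.000332), Ccr2 (0.97, adjusted p 0.0310) and Cx3cr1 (0.71, adjusted p 0.0101). With sex in the model Ccl2 (1.34, adjusted p 0.127), Ccl7 (1.64, adjusted p 0.0634), Ccr2 (0.58, adjusted p 0.313) and Cx3cr1 (0.51, adjusted p 0.144) no longer passed. No Nemofl/fl mouse was female, so sex and genotype cannot be fully told apart here. These groups share no library code, and with the code in the model, estimated through NEMOIEC-KO, Ccl2 (2.37, adjusted p 0.0576), Ccr2 (1.29, adjusted p 0.165) and Cx3cr1 (0.35, adjusted p 0.503) missed the threshold, Ccl7 (2.58, adjusted p 0.0381) and Ccl8 (3.46, adjusted p 0.0300) passed it, and Cx3cl1 was lower (-0.64, adjusted p 0.0363). Smooth muscle markers moved here too, with 11 of 13 lower and a summed level of 1723 to 5182 FPKM in the Il23a-/- double mutants. With that level as a covariate Ccl8 was the one member still called, while Ccl2 (1.00, adjusted p 0.270), Ccl7 (1.33, adjusted p 0.149), Ccr2 (0.15, adjusted p 0.781) and Cx3cr1 (0.41, adjusted p 0.261) were not. Ccr2 also lost its call in 5 of 10 analyses that left out 1 library, those without Nemofl/fl replicate 3, 4 or 5 or Il23a-/- replicate 1 or 4 (adjusted p 0.0589 to 0.0982), and with no filter on low values (adjusted p 0.0540). None of the 10 was lower in the fit over all groups, against 17.0% of all genes, and 3 of 10 (Ccl2, Ccl7 and Ccl8) lay wholly above Nemofl/fl, against 8.47%. The Il12b-/- double mutants had 0 of 10 called higher or lower (0.249% and 0.119% of all genes), although 5 of 5 libraries lay above Nemofl/fl for Ccl2, Ccl7 and Ccl8, as for 2.89% of all genes. The Il12a-/- double mutants had 0 of 10 called as well (0.773% and 0.571% of all genes), with Ccl2 and Ccl8 wholly above, as for 5.19%. In models of the compared groups alone Ccl8 was higher in the Il12b-/- (adjusted p 0.0192) and Ccl2 (adjusted p 0.0409) and Ccl7 (adjusted p 0.0474) in the Il12a-/- double mutants, and with the smooth muscle covariate Ccl8 was higher in the Il12a-/- double mutants (1.60, adjusted p 0.0201). At an unadjusted p below 0.05 limma had 4 of the 10 in the Il12b-/- double mutants (Ccl8, Ccr2, Cx3cr1 and Cx3cl1) and 2 in the Il12a-/- double mutants (Ccl7 and Ccl8). Ccl8 averaged 7.92 ± 2.19 FPKM (SD, n = 5) in Il12b-/-, 12.3 ± 9.87 in Il12a-/- and 2.68 ± 0.690 in Nemofl/fl. Its log2 changes of 1.40 (limma, adjusted p 0.218) and 1.70 (adjusted p 0.0769) from Nemofl/fl had 95% intervals above 0.

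Between double mutants, 0 of the 10 genes were called in any of the 3 direct comparisons, in which 0.41% (Il12a-/- against Il12b-/-), 5.11% (Il23a-/- against Il12b-/-) and 1.16% (Il23a-/- against Il12a-/-) of all genes were. Ccl8 came nearest, 4.00-fold higher in mean FPKM in Il23a-/- than in Il12b-/- (log2 change 1.67, limma adjusted p 0.0532). It was smaller with the smooth muscle level as a covariate (0.88, adjusted p 0.376). With the library code in the model 4 members differed between Il23a-/- and Il12b-/-: Ccl2 (log2 change 1.47, adjusted p 0.0459), Ccl7 (1.44, adjusted p 0.0425) and Ccl8 (1.89, adjusted p 0.0340) were higher in Il23a-/- and Csf1 was lower. The same 4 were called without Il23a-/- replicate 5, the one double mutant with a library code of its own (adjusted p 0.0283 to 0.0415). A model with the code sets this library aside, so both settings give the same estimates and are not separate evidence. Ccl8 was also called in 5 other alternatives: a stricter filter, median-of-ratios scaling, within the shared code, and without Il12b-/- replicate 2 or Il23a-/- replicate 2 (adjusted p 0.0253 to 0.0494). The estimate within the shared code (1.89) is again that of the model with the code. Ccl8 was the one member called within the shared code, where Ccl2, Ccl7 and Csf1 did not pass. Between Il23a-/- and Il12a-/-, Ccl8 was called without Il12a-/- replicate 1 (1.73, adjusted p 0.0223). Whether the chemokines differed between the Il23a-/- and Il12b-/- double mutants thus depended on the model and on single libraries.

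**Figure D3:**
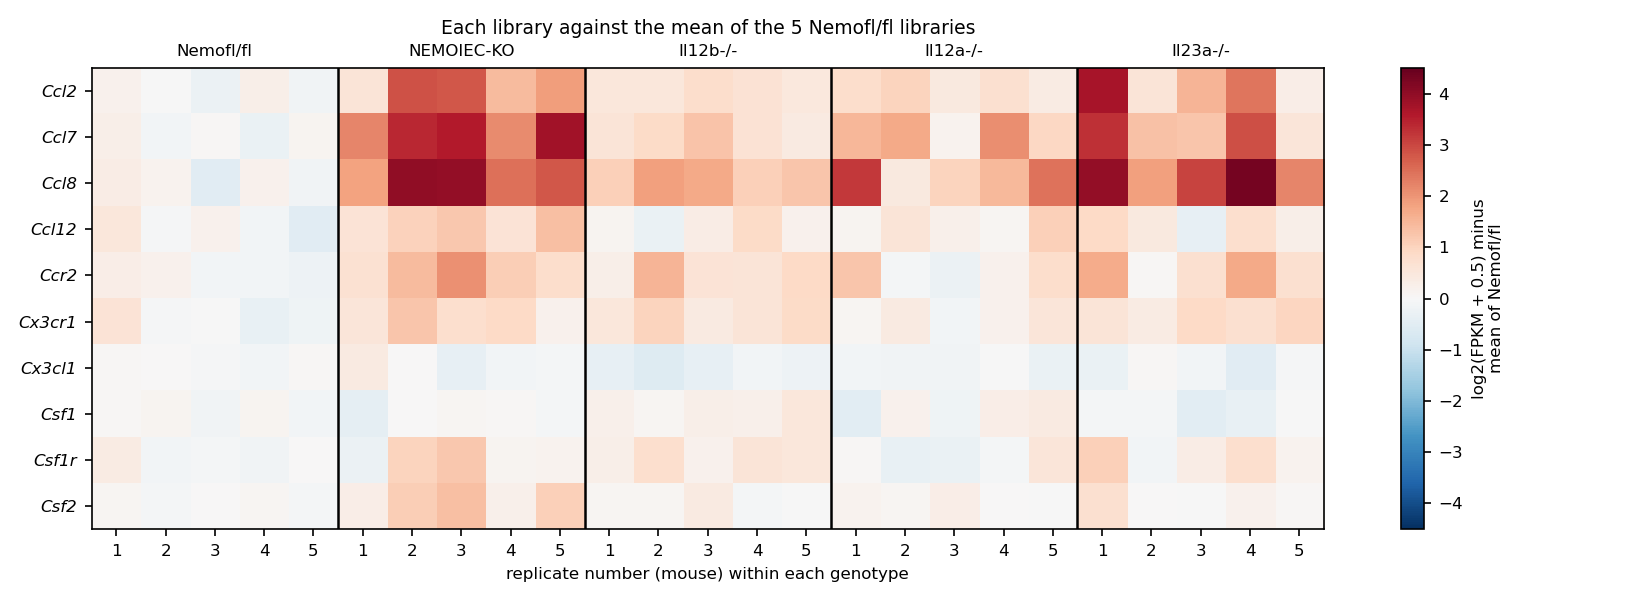
Log2(FPKM + 0.5) of each gene (rows) in each library (columns, replicates 1 to 5 within a genotype) minus the mean of the 5 Nemofl/fl libraries; red is above and blue below that mean. NEMOIEC-KO replicates 2 and 3 and Il23a-/- replicates 1 and 4 are the darkest red for Ccl8, with 49.3, 47.8, 48.3 and 60.8 FPKM.

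The make-up of the chemokine pool is given here as group means and SD. The summed level of Ccl2, Ccl7, Ccl8 and Ccl12 was 5.50 ± 1.15 FPKM (SD, n = 5) in Nemofl/fl and 48.5 ± 25.5 in NEMOIEC-KO. Among the double mutants it was 12.6 ± 2.49 with Il12b-/-, 18.8 ± 9.95 with Il12a-/- and 44.3 ± 31.2 with Il23a-/-. Ccl8 gave 48.5% ± 7.39 of that sum in Nemofl/fl and 57.9% ± 9.44 in NEMOIEC-KO. Ccl12 gave 24.6% ± 6.65 in Nemofl/fl and 7.56% ± 2.92 in NEMOIEC-KO, and Ccl7 17.9% ± 4.90 and 27.1% ± 8.71. With Il23a-/-, Ccl8 gave 72.2% ± 8.41 and Ccl7 13.6% ± 4.45. These shares are a description and were not tested.

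Relative to Csf1r, a receptor of monocytes and macrophages alike, Ccr2 stood at 0.112 ± 0.0226 (ratio of FPKM, SD, n = 5) in Nemofl/fl and at 0.244 ± 0.0398 in NEMOIEC-KO, with ranges of 0.0839 to 0.146 and 0.190 to 0.280. Double mutants stood at 0.170 ± 0.0530 (Il12b-/-), 0.175 ± 0.0918 (Il12a-/-) and 0.201 ± 0.0567 (Il23a-/-), all with ranges that overlapped both NEMOIEC-KO and Nemofl/fl. The ratio of Ccl8 to Csf1r was 0.314 ± 0.0816 in Nemofl/fl and 2.12 ± 0.5 in NEMOIEC-KO. Among the double mutants it was 0.666 ± 0.202 with Il12b-/-, 1.37 ± 1.03 with Il12a-/- and 2.37 ± 1.12 with Il23a-/-. The Il12b-/- range, up to 0.981, ended below the NEMOIEC-KO range, which began at 1.47. Relative to Cx3cr1, Ccr2 stood at 0.727 ± 0.156 in Nemofl/fl and at 1.21 ± 0.564 in NEMOIEC-KO. The ranges of that ratio, 0.559 to 0.904 and 0.840 to 2.17, overlapped. Like the shares, these ratios were not tested.

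After each genotype's mean was subtracted, several of the genes varied together over the 25 libraries. Pearson's r of log2(FPKM + 0.5) was 0.88 between Ccr2 and Ccl8, 0.82 between Ccr2 and Csf1r, 0.80 between Ccl8 and Csf1r and 0.80 between Ccl2 and Ccl7. Cx3cl1 ran the other way, with r of -0.61 against both Ccr2 and Ccl8 and -0.59 against Csf1r. The highest r with any other member was 0.41 for Csf1, 0.43 for Ccl12 and 0.48 for Cx3cr1. The points of 1 library share its depth and tissue composition, so these are descriptions.

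**Figure D4:**
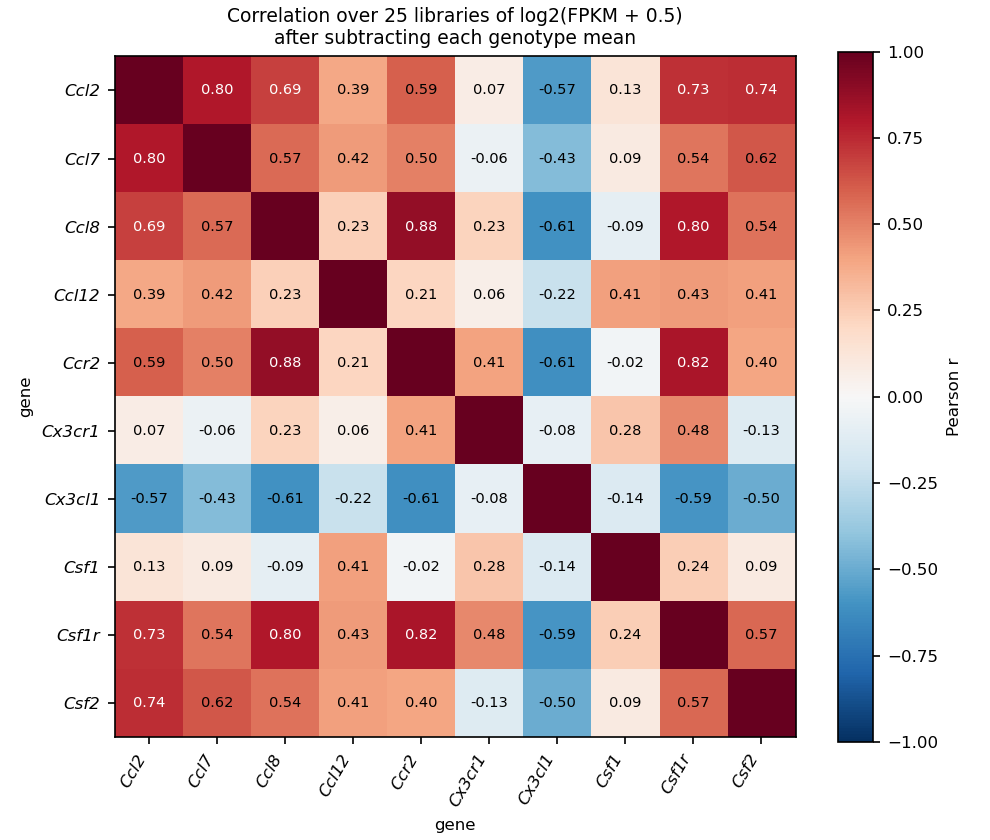
Pearson's r between each pair of the 10 genes over 25 libraries, after subtraction of the genotype mean from log2(FPKM + 0.5); the colour runs from blue (-1) to red (1). Ccl8, Ccr2 and Csf1r form a red block with r from 0.80 to 0.88, while the row of Cx3cl1 is blue.

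The genes with the most similar pattern over the 25 libraries, among about 12542 genes with a mean of at least 1 FPKM, differed by member. For Csf1r they were Fcgr3 (r 0.97), Clec4n (0.96) and C1qc (0.95), and for Ccr2 they were Ctsc (0.93), Tyrobp (0.93) and Cd84 (0.93). For Ccl8 they were Il18bp (0.90), Fcgr4 (0.89) and Csf3r (0.88). For Ccl2 they were Mmp13 (0.92), Il1a (0.92) and Il11 (0.90), and for Ccl7 they were Socs1 (0.86), Myd88 (0.85) and Irgm1 (0.85). Csf2 was nearest to Isg20 (0.84), Cxcl1 (0.82) and Il1a (0.80). Cx3cl1 was nearest to Mgat4a (0.85), Slc17a5 (0.85) and Fam234a (0.85), Csf1 to Ppid (0.81), Ptpn13 (0.81) and Pde8a (0.81), Cx3cr1 to Tmem176a (0.73), Chst1 (0.73) and Ifnar1 (0.71), and Ccl12 to Rps24-ps3 (0.73), Bmp2k (0.71) and Pex3 (0.69).

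Other chemokines of myeloid and lymphoid traffic moved as well. Of 14 genes listed (Ccl3, Ccl4, Ccl5, Ccl6, Ccl9, Ccl11, Ccl17, Ccl22, Ccl24, Cxcl9, Cxcl10, Cxcl12, Cxcl14 and Cxcl16), 7 were higher and 0 lower in NEMOIEC-KO, with a median log2 change of 1.23. Over all genes 11.9% were higher and 20.3% lower. Cxcl9, an interferon-gamma target that attracts T cells, averaged 14.3 ± 12.5 FPKM (SD, n = 5) against 0.0741 ± 0.0420 in Nemofl/fl (log2 change 4.12, limma adjusted p 0.000171), and Cxcl10 rose by 2.73 on the log2 scale (adjusted p 0.00233). In the Il12b-/- double mutants 5 were lower than in NEMOIEC-KO, led by Cxcl9 (log2 change -3.44, adjusted p 0.0013) and Cxcl10 (-2.59, adjusted p 0.00546). In the Il12a-/- double mutants 5 were lower, led by Cxcl9 (-2.90, adjusted p 0.0121) and the macrophage inflammatory protein gene Ccl4 (-2.30, adjusted p 0.0196). None of the 14 was called in the Il23a-/- double mutants. Over all genes 5.94% were lower with Il12b-/-, 4.0% with Il12a-/- and 0.0363% with Il23a-/-. In the alternative analyses the higher count in NEMOIEC-KO ran from 5 to 8. The lower count ran from 0 to 6 with Il12b-/- and also from 0 to 6 with Il12a-/-.

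Most of the other chemokine receptors and scavengers listed did not pass the test in NEMOIEC-KO, and the 2 named here are ones that did. Ccr1, a receptor of CC chemokines, was higher in NEMOIEC-KO (log2 change 1.2, limma adjusted p 0.00804). Ackr4, a scavenger of homeostatic chemokines, was lower (-1.12, adjusted p 0.00234). It was higher again in the Il12b-/- double mutants (0.75 against NEMOIEC-KO, adjusted p 0.0395).

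Of the 14 further growth factor and receptor genes listed, 12 were tested, and 7 were higher and 1 lower in NEMOIEC-KO. Over all genes 11.9% were higher and 20.3% lower. Csf3r, the G-CSF receptor of neutrophils, rose by 2.43 on the log2 scale (limma, adjusted p 0.0013) and Csf2rb, the shared signalling chain of the receptors for CSF2, IL-3 and IL-5, by 1.61 (adjusted p 0.00613), while Kit fell by 0.79 (adjusted p 0.00781). Il34, the other ligand of CSF1R, averaged 32.2 FPKM in NEMOIEC-KO and 31.1 in Nemofl/fl (log2 change 0.05, adjusted p 0.818). Csf3r fell by 1.61 in the Il12b-/- (adjusted p 0.0281) and fell by 1.89 in the Il12a-/- double mutants (adjusted p 0.0234), and Csf2ra, the alpha chain of the CSF2 receptor, fell by 0.59 in the Il12b-/- double mutants (adjusted p 0.00932). Over the alternative analyses of this list the higher count in NEMOIEC-KO ran from 3 to 8. The lower count ran from 0 to 5 with Il12b-/- and from 0 to 3 with Il12a-/-.

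Of 10 listed cytokines known to induce monocyte chemokines (Tnf, Il1a, Il1b, Il6, Ifng, Il17a, Il17f, Il18, Osm and Lta), 9 were tested, with 6 higher and 2 lower in NEMOIEC-KO. Over all genes 11.9% were higher and 20.3% lower, so the lower count is near the share of all genes. Il1b averaged 36.0 ± 41.5 FPKM (SD, n = 5) against 0.490 ± 0.226 in Nemofl/fl (log2 change 4.13, limma adjusted p 0.00139), and Tnf 5.16 ± 3.88 against 0.805 ± 0.463 (1.90, adjusted p 0.00135). The lower ones were Il17f (-0.50, adjusted p 0.0157) and Il18 (-0.42, adjusted p 0.0216). In the Il12b-/- double mutants 5 were lower than in NEMOIEC-KO, among them Il1b (-3.45, adjusted p 0.00792) and Tnf (-2.19, adjusted p 0.000697), and Il17f was higher (0.50, adjusted p 0.0209). In the Il12a-/- double mutants 3 were lower, among them Il1b (-3.18, adjusted p 0.0250) and Tnf (-1.84, adjusted p 0.00824), and 2 were higher, Il17f (0.54, adjusted p 0.0267) and Il18 (0.45, adjusted p 0.0398). None of the 9 was called in the Il23a-/- double mutants, with mean Il1b at 26.6 ± 28.0 FPKM. Over all genes 5.94% were lower and 14.0% higher with Il12b-/-, and 4.0% and 5.61% with Il12a-/-. Alternative analyses gave higher counts of 2 to 7 in NEMOIEC-KO. They gave lower counts of 1 to 6 with Il12b-/- and of 0 to 6 with Il12a-/-.

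Cell type markers that could carry these genes moved in part. Of 9 inflammatory monocyte markers 3 were higher in NEMOIEC-KO, Ly6c2 (log2 change 1.94, limma adjusted p 0.000313), Plac8 (0.95, adjusted p 0.000289) and Itgam (1.08, adjusted p 0.0426), and F13a1 was lower (-1.39, adjusted p 0.00175). Their sum without Plac8, which at 1808 FPKM in Nemofl/fl outweighs the others, ranged from 54.9 to 115 FPKM in Nemofl/fl and from 52.4 to 98.8 in NEMOIEC-KO. Ly6c2 averaged 4.17 ± 2.23 FPKM (SD, n = 5) in Nemofl/fl and 16.7 ± 5.12 in NEMOIEC-KO, and 12.3 ± 2.52 (Il12b-/-), 9.97 ± 6.06 (Il12a-/-) and 18.6 ± 9.24 (Il23a-/-) in the double mutants. Of 14 resident macrophage markers 4 were higher in NEMOIEC-KO, led by the complement genes C1qb (1.12, adjusted p 0.00274) and C1qa (1.09, adjusted p 0.00117), and 5 were lower, led by Folr2 (-1.49, adjusted p 0.00103) and Cd163 (-1.42, adjusted p 0.000234). The sum of the 14 was 146 to 174 FPKM in Nemofl/fl and 171 to 370 in NEMOIEC-KO. Folr2 (1.54, adjusted p 0.0013) and Cd163 (0.99, adjusted p 0.0066) were higher in the Il12b-/- double mutants than in NEMOIEC-KO. There 3 of the 14 resident macrophage markers were higher and 0 lower. Of the 9 inflammatory monocyte markers 1 was higher and 1, Plac8, was lower (-1.08, adjusted p 0.000142). Over all genes 14.0% were higher and 5.94% lower in that comparison. Markers of T cells (9 of 9 higher in NEMOIEC-KO, summed level 23.3 to 64.0 FPKM against 4.98 to 12.8) and of neutrophils (7 of 9 higher, 9.67 to 561 FPKM against 1.21 to 8.13 without Ly6g, which lay at 342 FPKM in Nemofl/fl) moved in the same comparison. Among other lists, 5 of 8 dendritic cell and 6 of 10 epithelial markers were higher in NEMOIEC-KO, where 11.9% of all genes were, 2 of 8 fibroblast and 2 of 7 endothelial markers were lower, shares near the 20.3% of all genes, and 0 of 5 B cell markers were called. In the Il12b-/- double mutants 5 of 9 T cell and 5 of 9 neutrophil markers were lower than in NEMOIEC-KO. Over the alternative analyses these lower counts ran from 0 to 7 and from 1 to 8. The higher counts in NEMOIEC-KO ran from 6 to 9 for T cell and from 2 to 8 for neutrophil markers. No marker of these 4 lists was at 0 in all libraries of a group. The part of these cell types in the changes of the 10 genes was not tested.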

How the data were processed

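Poly-A RNA of 25 distal colons was sequenced as stranded libraries of paired reads. The authors deposited 1 table of FPKM for all libraries, made on GRCm38. The submitters' processing notes name TopHat2 2.0.10, Cufflinks 2.1.1 and DESeq2 1.10.1, but which step gave the deposited FPKM is not given in the sources used here. Of 49452 rows, 49109 carried a symbol.

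From these values limma 3.58.1 (R 4.3.3) was fitted to log2(FPKM + 0.5) for the 19266 genes that reached 0.2 FPKM in 5 or more libraries, with 1 mean per genotype, 20 residual degrees of freedom, a trend in the prior variance and Benjamini-Hochberg adjustment over all genes. Fold changes on this scale understate those of low genes. FPKM keep no read counts, so the precision of low values is known only from relative depth. Csf2 was also tested by exact permutation. The fit was also run on simulated data with independent noise. Those data held no effect of library code, sex or tissue composition, and changes only in genes well above the level of Csf2. That run therefore does not bear on these points. Genotypes come from the sample labels, and replicates are separate mice. In each list the genes named are the largest called changes of each direction, with others where a sentence turns on them. Alternatives were the pseudocount, filter, scaling, library code, sex, smooth muscle level, the compared groups alone, a replicate block and each library left out. The members and lists were chosen with earlier results of these data known. One of the listed receptor genes is not reported here.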

Additional observations from a re-analysis of the deposited data

Results flagged for a closer look

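Of 50 groups of 5 libraries (10 genes in 5 genotypes), 1 had a library far from the others: Csf2 in NEMOIEC-KO Il23a-/- replicate 1 was 0.373 FPKM, about 12 fragments, and the next highest library of its group was 0.107 FPKM. The gap took 0.737 of the group's range on the log2(FPKM + 0.5) scale, against a critical value of 0.71. Chance marks about 1 in 20 groups in this way. The same library held the highest Ccl2 of the study, at 12.4 FPKM.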

How the results depend on the processing

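Of 876 alternative values of the 10 genes in the 4 comparisons of NEMOIEC-KO, 766 kept their direction and their side of the threshold, 56 lost the call, 8 gained one and 46 changed sign, all of these without a call in either analysis. The number of genes called was 6202 for NEMOIEC-KO against Nemofl/fl, and 3833, 1851 and 16 for the Il12b-/-, Il12a-/- and Il23a-/- double mutants against NEMOIEC-KO. With the smooth muscle level as a covariate these became 2181, 2481, 170 and 125. With the library code in the model the 3 double mutants gave 1420, 177 and 6 genes, and within the code they share with 2 NEMOIEC-KO libraries 1062, 14 and 4. In models of the compared groups alone the Il12a-/- double mutants gave 364 genes and the Il23a-/- double mutants 7, and the latter gave 4 with sex in the model. Leaving out 1 library gave 4251 to 6310, 2656 to 4460, 587 to 4836 (without Il12a-/- replicates 2 and 1) and 6 to 36 genes (without Il23a-/- replicates 4 and 1). The cause of these differences was not tested.

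Deviations from the group means showed no sign of a pairing of mice by replicate number. Their median r was 0.0071 over 50 pairs with the same number and 0.0086 over 200 with different numbers. Such a comparison cannot exclude a pairing. With the replicate block the 4 comparisons gave 6205, 3806, 1772 and 8 genes.

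Scaling moved the share of calls that were higher. In NEMOIEC-KO against Nemofl/fl it was 36.9% and became 51.1% with median-of-ratios scaling. In the Il12b-/- double mutants it was 70.2%, and 43.3% with median-of-ratios and 54.4% with quantile scaling, and in the Il12a-/- double mutants 58.4%, 34.4% and 46.7%. Median-of-ratios scaling moved the median log2 change of all genes in the Il12b-/- double mutants from 0.11 to 0.01.

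Some log2 changes changed sign. In NEMOIEC-KO against Nemofl/fl, Cx3cl1 was 0.057 with median-of-ratios scaling, 0.092 with the smooth muscle covariate and 0.018 with sex. Csf1 was 0.024 with median-of-ratios scaling, 0.013 with quantile scaling, 0.028 with or within the library code and 0.021 with smooth muscle, and Csf1r was -0.021 with smooth muscle. In the Il12b-/- double mutants, smooth muscle gave 0.0078 for Ccr2 and 0.10 for Cx3cr1, and Csf1r was -0.11 (median-of-ratios), -0.056 (quantile) and -0.069 (sex). In the Il23a-/- double mutants, Ccl2 was 0.33 and Csf1r 0.13 with or within the library code, and Ccl8 was -0.10 with smooth muscle and -0.20 with sex. Leaving out 1 library gave ranges of -0.14 to 0.052 for Cx3cl1 and -0.099 to 0.029 for Csf1 in NEMOIEC-KO, and of -0.19 to 0.069 for Cx3cr1 and -0.16 to 0.21 for Csf1r in the Il12b-/- double mutants. In the Il23a-/- double mutants they were -0.71 to 0.14 for Ccl2, -0.24 to 0.37 for Ccl8, -0.15 to 0.11 for Cx3cr1 and -0.19 to 0.18 for Csf1r. Csf2 was not tested under the filter of at least 1 FPKM, which it did not pass. Depth limits Csf2, since most of its values outside NEMOIEC-KO stand for a few fragments.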
